A study of Sus scrofa with 599 samples.

Results

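Retroperitoneal adipose (RAD), a visceral fat depot, was compared between pigs at the end of weight gain (WG) and pigs that had afterwards lost weight (WL). The samples were chosen by their labels: 39 WG and 10 WL samples with RNA-seq, 49 of the 236 RNA-seq samples of the series, and 40 WG and 10 WL samples with Hi-C, 50 of 240. All animals were adult female Bama miniature pigs, aged 2 years at the start. WG pigs had received a high-fat diet for 22 weeks. WL pigs had received the same diet for 22 weeks and were then held for 12 weeks at 10% of the caloric intake of the normal group. They were 10 of the pigs fed the high-fat diet and not the animals sampled as WG, and they were 12 weeks older at sampling, so weight loss, restriction and age cannot be told apart. Pigs on a normal diet (NC, 12 samples each for RNA-seq and Hi-C and 2 for H3K27ac) are given as background. RNA was taken from whole tissue, in which fewer cells of a type and less RNA per cell cannot be told apart, and the Hi-C protocol took the adipocyte layer of fixed tissue after centrifugation.

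Adipocytes store fatty acids as triglycerides and release them by lipolysis. The fatty acids are taken from blood lipoproteins by lipoprotein lipase or built from citrate by de novo lipogenesis, in which ACLY makes acetyl-CoA, ACACA makes malonyl-CoA, FASN makes palmitate, ELOVL6 elongates it and SCD desaturates it. ME1 and the pentose phosphate enzymes PGD, TKT and TALDO1 feed NADPH and sugar phosphates to that pathway. In the nucleus, chromatin is divided into an active compartment A and a less active compartment B, and into topologically associating domains (TADs), within which contacts are enriched.

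The adipocyte markers were high in both groups. The summed level of the 8 named adipocyte markers ranged in WG from 13130 to 32150 TPM, a share of all transcripts corrected for transcript length, with a median of 22130, and in WL from 17970 to 30670, with a median of 23340. No marker of adipocytes, endothelial cells, macrophages or T and NK cells was called. Among the other lists, CLEC3B of progenitors, LMOD1 of smooth muscle, and JCHAIN of plasma cells were higher in WL, and RGS5 and MYOCD of smooth muscle, CSF3R of granulocytes and MYL1 of skeletal muscle were lower. The 9 kidney markers all had a median under 0.5 TPM, but their sum reached 158.1 TPM in 1 WG library. Macrophage markers summed to 569.4 to 4362 TPM in WG and 957 to 2231 in WL. Estimated counts on protein-coding genes (PCGs) ranged from 10179137 to 22426884 per library in WG and from 12721946 to 20357182 in WL.

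The WG libraries were not alike. In 23 of them the mitochondria-encoded genes took from 1.06% to 7.65% of the PCG TPM, and in the other 16 from 11.2% to 24.5%, while the 10 WL libraries ranged from 0.76% to 3.33% and 9 of the 12 NC libraries were above 10%. The first principal component of the RAD transcriptomes, 37.0% of the variance, separated these sets of WG libraries. The labels do not tell them apart. The share was lower in WL than in WG by 7.25 percentage points (permutation test, 2-sided, p = 6e-05; n = 39 and 10). WL replicates 4 and 5 also stood apart, with 76.3% and 76.2% of their TPM on PCGs, where all the WG libraries had at least 89.0%. The main RNA results below are therefore also given against the 23 WG libraries with up to 10%, and the part of this share in the results was not tested otherwise.

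**Figure D1:**
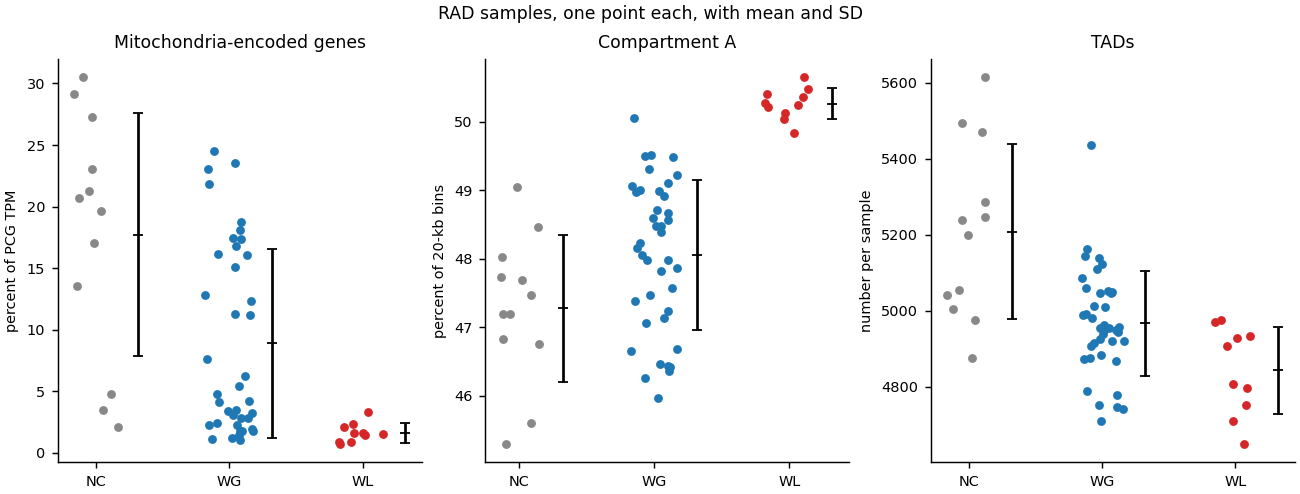
Values of each RAD sample in NC, WG and WL, with the mean and SD beside the points: mitochondria-encoded genes as percent of PCG TPM, 20-kb bins in compartment A as percent, and the number of TADs. WG spans 1.06% to 24.5% in the first panel, and the WL samples sit high in the second, from 49.8% to 50.6%.

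Of 13548 PCGs tested with edgeR, 304 were higher in WL, 2.24% of those tested, and 559 were lower, 4.13%, where a call needed more than a 1.5-fold change and a Benjamini-Hochberg p under 0.05. Against the 23 WG libraries, 309 were higher and 429 lower, of which 175 and 256 were among the genes above, and 57 of the genes called with all WG libraries had the other sign. Without WL replicates 4 and 5 the counts were 273 and 659. Without WL replicate 3 there were 368 lower genes, and without replicates 7 and 9 there were 339.

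De novo lipogenesis was the pathway with the largest share of lower genes among the nuclear lists. Of its 21 tested members 16 were lower in WL, against 4.13% of all genes, and 0 were higher. They included ACACA, ACLY, FASN, SCD, ELOVL5, ELOVL6, ME1, THRSP, MLXIPL, SLC25A1, ACSS2, PGD, TKT, TALDO1 and MID1IP1. The median log2 fold change of the list was -0.85, where that of all tested genes was -0.01. With the 23 WG libraries 13 members were lower, and over all the alternatives the number ranged from 12 to 17. The 5 members not called were the desaturases FADS1 and FADS2, PNPLA3, IDH1 and SREBF1, the factor that drives the pathway's genes, whose log2 fold change was -0.73 ± 0.35 (SE, adjusted p = 0.156) with all WG libraries and 0.14 with the 23 (adjusted p = 0.744).

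Windows at the start of 4 of these lower genes are shown because the members of the list moved together. Each window holds 250 bases before to 50 after the start of the gene in RefSeq (Sscrofa11.1), given 5′ to 3′ on the strand of the gene, with CCAAT, its reverse complement ATTGG and CACGTG in capitals. The windows are ACLY at chr12:20796428-20796727, SCD at chr14:111461310-111461609, ELOVL5 at chr7:46932896-46933195 and FASN at chr12:922155-922454, where ELOVL5 is on the minus strand and the others are on the plus strand.
ACLY: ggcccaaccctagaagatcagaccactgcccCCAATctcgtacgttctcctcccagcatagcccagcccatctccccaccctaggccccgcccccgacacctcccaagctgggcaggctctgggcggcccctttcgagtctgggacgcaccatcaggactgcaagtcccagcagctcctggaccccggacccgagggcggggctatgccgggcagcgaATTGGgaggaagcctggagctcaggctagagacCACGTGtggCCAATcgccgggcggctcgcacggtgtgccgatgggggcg
SCD: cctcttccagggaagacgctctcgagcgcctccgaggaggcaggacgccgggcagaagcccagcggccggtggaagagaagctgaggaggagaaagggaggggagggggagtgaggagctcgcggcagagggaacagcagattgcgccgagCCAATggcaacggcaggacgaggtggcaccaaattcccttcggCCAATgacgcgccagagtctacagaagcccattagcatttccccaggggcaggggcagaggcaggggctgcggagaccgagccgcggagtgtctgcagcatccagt
ELOVL5: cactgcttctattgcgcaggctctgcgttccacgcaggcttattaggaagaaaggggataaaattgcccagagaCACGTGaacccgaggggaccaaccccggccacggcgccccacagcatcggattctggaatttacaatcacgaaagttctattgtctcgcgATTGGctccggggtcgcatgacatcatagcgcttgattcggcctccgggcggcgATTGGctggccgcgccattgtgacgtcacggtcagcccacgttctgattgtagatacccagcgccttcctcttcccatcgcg
FASN: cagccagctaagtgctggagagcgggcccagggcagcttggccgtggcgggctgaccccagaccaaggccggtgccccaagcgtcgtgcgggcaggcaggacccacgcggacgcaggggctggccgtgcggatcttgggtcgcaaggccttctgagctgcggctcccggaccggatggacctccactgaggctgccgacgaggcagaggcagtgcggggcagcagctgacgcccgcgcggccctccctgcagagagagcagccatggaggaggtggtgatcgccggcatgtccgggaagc
Of the 16 genes, 14 had a window. CCAAT, searched on both strands, was in 9 of 14, in 34.8% of the 13126 windows read and in 36.9% of those of all lower genes. CACGTG, which reads the same on both strands, was in 3 of the 14, SLC25A1, ACLY and ELOVL5, and in 8.62% of all. A sterol regulatory element was in 0 of the 14 and in 0.099% of all windows. The FASN window held none of these letters. Its place rests on the start of the gene in RefSeq, and whether transcription starts there was not tested, so it may not hold the promoter. The matches describe the windows only.

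FASN, fatty acid synthase, had the lowest log2 fold change of the 147 named genes. Its level was from 103 to 3161 TPM in WG, with a median of 761, and from 4.01 to 72.5 TPM in WL, with a median of 20.8, and NC had a median of 1299. All 10 WL libraries were below all 39 WG libraries. Of the 13548 PCGs tested this held for 2, FASN and P2RX5, and the reverse held for 1, KIF5A. The log2 fold change of FASN was -5.31 ± 0.60 (SE, adjusted p = 1.21e-08), and -4.82 with the 23 WG libraries (adjusted p = 9.9e-08).

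SCD, the stearoyl-CoA desaturase, had a median of 2647 TPM in WG, from 266 to 13532, and of 197 in WL, from 24.5 to 1358. WL replicates 4, 9 and 10 were above 1200 TPM and the other 7 were under 300. Its log2 fold change was -2.79 ± 0.54 (SE, adjusted p = 0.000371). ACLY was from 59.1 to 727 TPM in WG, with a median of 175, and from 40.7 to 78.3 in WL, with a median of 62.3, and fell by 2.02 on the log2 scale (adjusted p = 8.07e-05). ACACA, with medians of 256 and 119 TPM, fell by 1.12 (adjusted p = 0.000327). ME1, malic enzyme, ranged from 76.5 to 788 TPM in WG and from 26.9 to 97.2 in WL, and fell by 2.73 (adjusted p = 1.54e-07). MLXIPL, the carbohydrate-response factor of these genes, fell by 2.15, to a median of 4.93 TPM (adjusted p = 0.000807). The elongase ELOVL6 went from a median of 532 to 210 TPM and TKT from 374 to 150, with adjusted p of 1.92e-05 and 1.25e-05. The groups overlapped for each of these genes, but no WL library was above the WG median of SCD, ACLY, ME1, ELOVL6 or TKT.

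**Figure D2:**
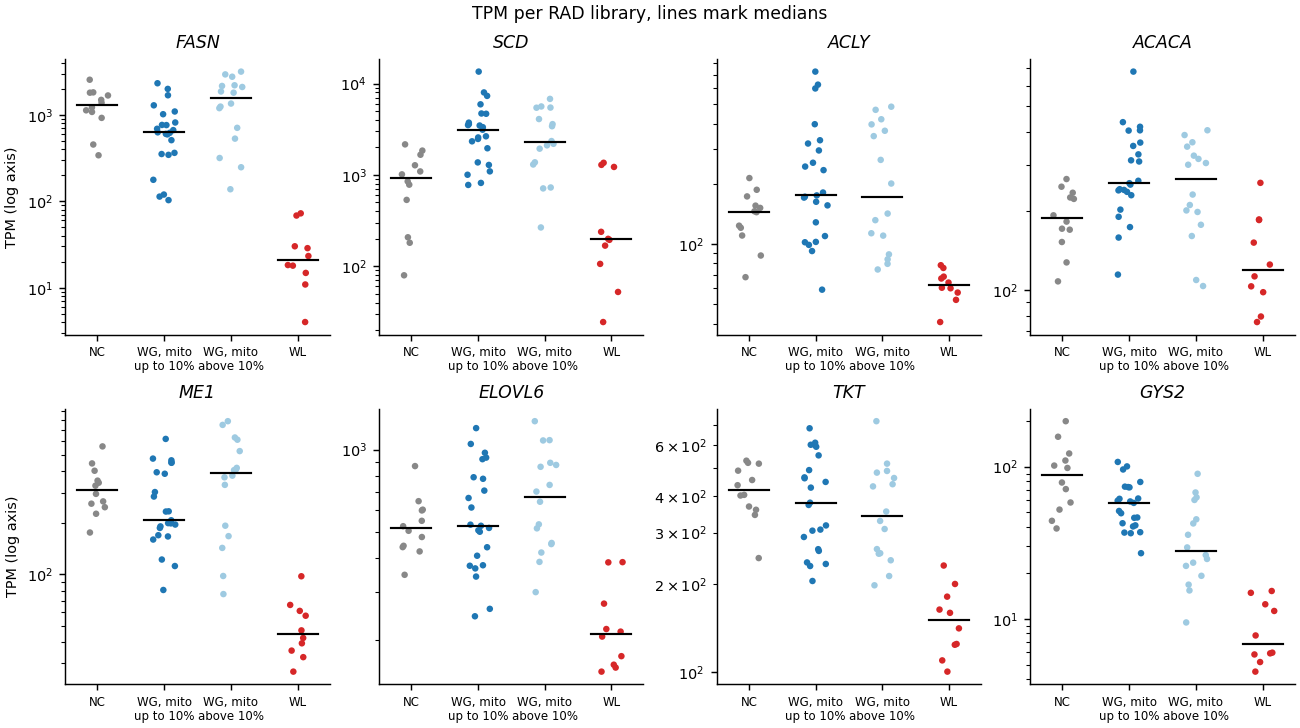
TPM per RAD library on a log axis for 7 lipogenic genes and GYS2 in NC, the WG libraries with up to and above 10% of PCG TPM on mitochondria-encoded genes, and WL, with medians as lines. The WL points of FASN, from 4.01 to 72.5 TPM, lie below all the WG points.

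None of the 14 tested genes of triglyceride synthesis and none of the 9 of the lipid droplet coat were called by edgeR. Over all genes 2.24% were higher and 4.13% lower. At an unadjusted p under 0.05, 2 of the 14 were higher and 3 lower, and 0 of the 9 higher and 1 lower. DESeq2 called 1 of the 14 and 0 of the 9, and with the 23 WG libraries edgeR called 1 of the 14 lower. DGAT2, of the last step of triglyceride synthesis, had medians of 189 and 64.2 TPM (-1.02 ± 0.37, adjusted p = 0.0568). Among genes of fatty acid uptake, GPIHBP1, which carries lipoprotein lipase to the capillary surface, was higher in WL, and LPL, the lipase itself, was lower. GPIHBP1 ranged from 160 to 582 TPM in WG, with a median of 295, and from 392 to 1017 in WL, with a median of 596, and all 10 WL libraries were above the WG median (log2 fold change 0.89 ± 0.17, adjusted p = 0.000468). LPL had medians of 1949 and 917 TPM, with ranges that overlapped, and fell by 0.91 (adjusted p = 0.00025). Both were called with the 23 WG libraries too.

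In lipolysis 3 of 15 members were higher in WL, against 2.24% of all genes, and none were lower, where 4 had an unadjusted p under 0.05 in that direction. With a term for the share of TPM on PCGs 1 was higher and 2 lower. G0S2, an inhibitor of the triglyceride lipase PNPLA2, ranged from 16.9 to 299 TPM in WG and from 96.7 to 952 in WL and rose by 1.95 ± 0.35 on the log2 scale (adjusted p = 0.000133). NPR3, the clearance receptor of natriuretic peptides, rose by 1.56 ± 0.21, from a median of 50.7 to 163 TPM (adjusted p = 5.92e-07). ADRB1, a beta-adrenergic receptor, rose by 1.03, from 6.66 to 13.5 TPM (adjusted p = 0.0052), and was not called with the 23 WG libraries (adjusted p = 0.0579), with which 2 members were higher and 1 lower. The lipases PNPLA2 and LIPE were not called, with medians of 186 and 139 TPM for PNPLA2 and 577 and 543 TPM for LIPE, in WG and WL. PDE3B, which ends the cAMP signal, passed in p but not in fold change, at -0.56 (adjusted p = 0.00464), and was called lower with the 23 WG libraries (-0.65, adjusted p = 0.000951).

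Of 21 insulin and glucose genes 4 were lower, where the share over all genes was 4.13%, and 0 higher: HK1, the hexokinase, PDHA1 and PDHB, subunits of the pyruvate dehydrogenase, and PDK2, its kinase. HK1 fell by 0.70 (adjusted p = 8.1e-05) and PDHA1 by 0.83 (adjusted p = 0.0052), while PDK2, called with all WG libraries (adjusted p = 0.0302), was at -0.11 with the 23 (adjusted p = 0.731). SLC2A4, the insulin-dependent glucose transporter, was not called (-0.27 ± 0.25, adjusted p = 0.479). GYS2, a glycogen synthase, had a median of 46.1 TPM in WG and of 6.87 in WL and fell by 2.60 ± 0.32 (adjusted p = 1.29e-07). In the citric acid cycle 2 of 20 members were lower, and 3 with the 23 WG libraries. At an unadjusted p under 0.05 in edgeR, 9 of the 20 were lower and 0 higher. The median log2 fold change of that list was -0.18, with 3 of 20 above 0, and -0.36 with the 23 WG libraries. Over all the alternatives from 2 to 8 of its members were called lower. In fatty acid oxidation 1 of 24 was lower, which is near the 4.13% over all genes. OGDH, of the oxoglutarate dehydrogenase, was lower with all WG libraries (adjusted p = 0.00223) and not called with the 23. The 1 lower gene of fatty acid oxidation was ECHS1, and CPT1A, which admits fatty acids to mitochondria, was not called (0.44 ± 0.18, adjusted p = 0.0838).

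All 12 tested mitochondria-encoded genes of the respiratory chain were lower in WL with all WG libraries, and 1, COX1, with the 23. The 23 libraries were defined by these same genes, so the second count is a description. A term for the share of TPM on PCGs, with all WG libraries, also left 1 of the 12. COX1 had medians of 17177 and 6378 TPM (log2 fold change -1.65 ± 0.28, adjusted p = 7.08e-05). Among the 56 nuclear genes of the chain 3 were lower, NDUFAB1, UQCR11 and COX5A, a share near the 4.13% over all genes. With the 23 WG libraries 11 were lower, and NDUFAB1 and COX5A were not among them (adjusted p = 0.0635 and 0.0786). The median of the nuclear list was -0.28, and -0.46 with the 23.

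**Figure D3:**
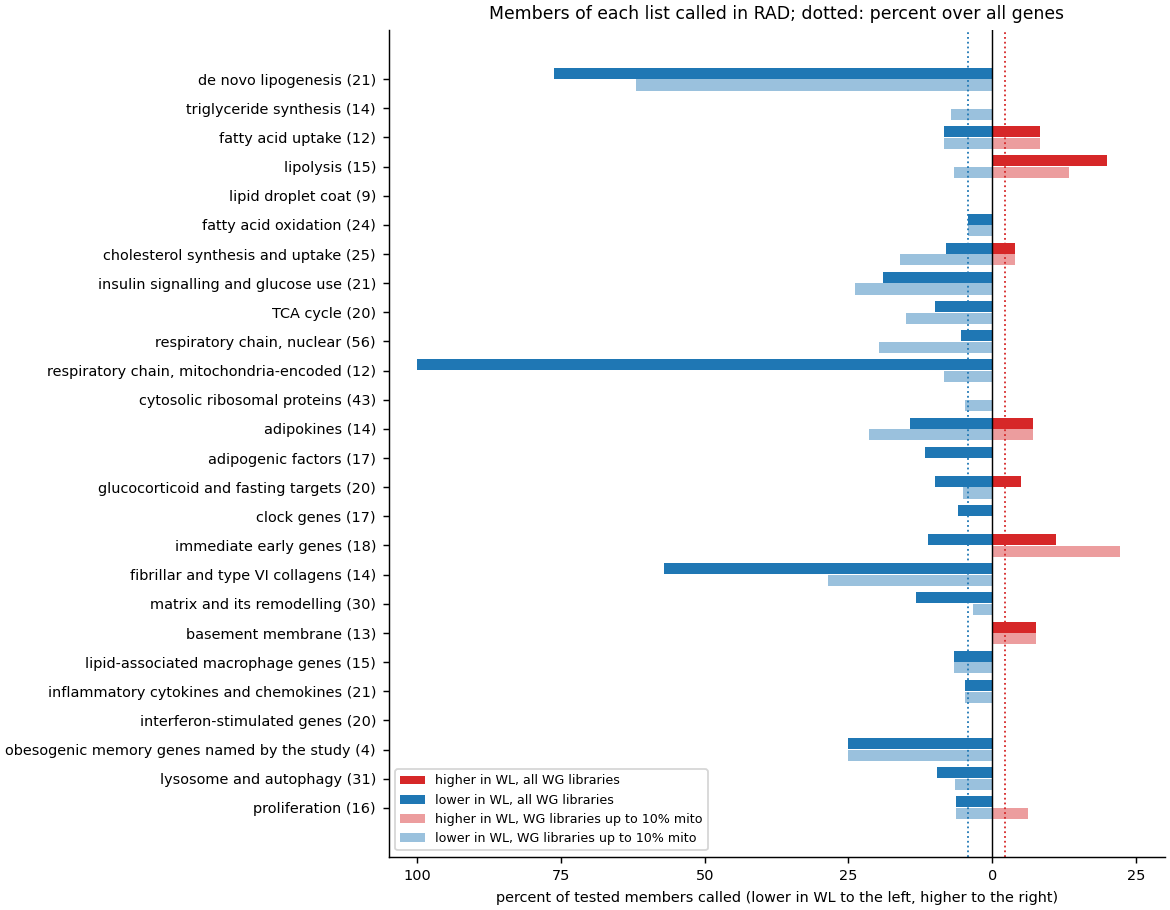
Percent of the tested members of each list called higher in WL (right) or lower (left), with all 39 WG libraries (dark) and the 23 with up to 10% mitochondria-encoded TPM (light), and the percent over all genes as dotted lines, 2.24% and 4.13%. The bar of the 21 lipogenic genes is long in both settings and that of the 12 mitochondria-encoded genes in the first.

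Of 25 genes of cholesterol synthesis and uptake 2 were lower and 1 higher, where the shares over all genes were 4.13% and 2.24%. IDI1 and LSS, of the mevalonate and lanosterol steps, were lower, TM7SF2, a sterol reductase, was higher, and 22 of 25 were not called. With the 23 WG libraries 1 was higher and 4 lower. LSS fell by 1.37 ± 0.25, from a median of 63.0 to 23.1 TPM (adjusted p = 0.000169).

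Of 14 adipokines 1 was higher and 2 lower, and of 17 adipogenic factors 0 and 2. The shares over all genes were 2.24% and 4.13%. LEP, leptin, had medians of 547 TPM in WG and 585 in WL (log2 fold change -0.05 ± 0.18, adjusted p = 0.893), where NC had 129. ADIPOQ, adiponectin, had medians of 3289 and 3987 TPM (0.32 ± 0.19, adjusted p = 0.274). INHBB, an activin subunit, was higher, and AGT, angiotensinogen, was lower. AGT fell by 1.45 ± 0.23, from a median of 333 to 155 TPM (adjusted p = 2.72e-05). PPARG, the adipogenic receptor, was lower at -0.60 ± 0.14 (adjusted p = 0.00197), and at -0.57 (adjusted p = 0.00408) it missed the fold limit with the 23 WG libraries. GATA3, which restrains adipogenesis, was lower with all WG libraries (-1.54) but at -0.18 with the 23.

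Among glucocorticoid and fasting targets HSD11B1, which regenerates cortisol, was higher and FKBP5 and KLF9 were lower, of 20 tested. For this list and those that follow here, the shares over all genes were 2.24% higher and 4.13% lower. Only KLF9 was called with the 23 WG libraries (-0.74, adjusted p = 0.00243). PDK4, a fasting-induced kinase, was not called (0.38 ± 0.27, adjusted p = 0.363). The immediate early genes FOS and NR4A2 were higher and ZFP36 and MYC lower, of 18. FOS had medians of 743 and 1390 TPM and rose by 0.78 (adjusted p = 0.00499). With the 23 WG libraries 4 of the 18 were higher and 0 lower, and ZFP36, at -1.49 with all WG libraries, was at 0.09. Of 17 clock genes BHLHE40 was lower (-1.04, adjusted p = 0.0208), and not with the 23 (-0.49, adjusted p = 0.235), and PER1 was not called (-0.72 ± 0.33, adjusted p = 0.133).

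Fibrillar and type VI collagens included 8 lower members of 14, against 4.13% of all genes: COL1A1, COL1A2, COL3A1, COL5A1, COL5A2, COL6A1, COL6A2 and COL6A5. The number was 4 with the 23 WG libraries and 2 with a term for the share of TPM on PCGs. It was 3 without WL replicate 1 or 2, 4 without replicate 3, 6, 7 or 8, and 5 without replicate 5. COL3A1 had medians of 2834 and 1402 TPM and fell by 0.90 ± 0.23 (adjusted p = 0.00797), and by 0.96 with the 23. COL1A1 ranged from 36.9 to 2076 TPM in WG and from 25.7 to 270 in WL, at -2.68 ± 0.62 (adjusted p = 0.00275), and at -0.91 with the 23 (adjusted p = 0.0739). COL6A3, another type VI chain, was not called (-0.46 ± 0.25, adjusted p = 0.218). Of 30 other matrix genes BGN, MMP9, MMP19 and TIMP1 were lower, against 4.13% of all genes, and with the 23 WG libraries 1, MMP19, was (MMP9 adjusted p = 0.0581). COL4A4 of the basement membrane was higher (1.45 ± 0.27, adjusted p = 0.00025).

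Few inflammation-related genes were called, as over all tested genes, of which 2.24% were higher and 4.13% lower. Of 21 cytokines and chemokines only CCL3L1 was lower (-1.37 ± 0.41, adjusted p = 0.0197), from a median of 14.5 to 6.06 TPM, and it was at -1.14 with the 23 WG libraries (adjusted p = 0.0802). IL6, with medians of 48.4 and 27.6 TPM, was at -0.65 (adjusted p = 0.164), and passed with the 23 (-0.87, adjusted p = 0.0432). CCL2 had medians of 136 and 116 TPM (adjusted p = 0.367). CTSD was the only one of 15 genes of lipid-associated macrophages that was lower, and the median of that list was -0.36, with 0 of 15 above 0. The macrophage receptors CD163 and TREM2 and the lysosomal CD68 were not called. None of the 20 interferon-stimulated genes or of the 43 ribosomal proteins were called by edgeR or DESeq2 with all libraries. With the 23 WG libraries 2 ribosomal proteins were lower. At an unadjusted p under 0.05 in edgeR with all libraries, 1 and 2 of the first were higher and lower, and 1 and 3 of the second. Of 31 genes of lysosomes and autophagy CTSD, NPC1 and ULK1 were lower, against 4.13% of all genes, and 0 with a term for the share of TPM on PCGs. With the 23 WG libraries ULK1 was at -0.14 (adjusted p = 0.543) and CTSD at -0.53 (adjusted p = 0.0518), and NPC1 was called. Of 16 proliferation genes CCNB2 was lower, where the share over all genes was 4.13%. Of 4 genes that the study named for obesogenic memory, taken from earlier work in mice, CCL3L1 was lower.

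The leading higher genes were mostly not in the lists. ANGPT4, an angiopoietin, ranged from 1.23 to 9.87 TPM in WG and from 6.30 to 33.6 in WL, 9 of the 10 WL libraries being above all WG libraries, and rose by 2.30 ± 0.19 (adjusted p = 2.24e-12). KIF5A, a kinesin heavy chain, was from 0.638 to 3.85 TPM in WG and from 5.06 to 9.25 in WL, so that all WL libraries were above all WG libraries (1.78 ± 0.15, adjusted p = 2.24e-12). GNAZ, a G protein subunit, rose from a median of 3.78 to 9.52 TPM and FZD7, a Wnt receptor, by 0.73 on the log2 scale. NDRG4 ranged from 5.19 to 52.6 TPM in WG and from 18.5 to 156 in WL and rose by 2.24. ABCA1, which exports cholesterol from cells, had medians of 51.1 and 107 TPM and rose by 0.92 ± 0.14 (adjusted p = 6.49e-06). CD38, an NAD-consuming enzyme, rose by 1.01, from 4.64 to 9.62 TPM. CAMK1, TTC9B, PCDHAC2 and TLCD2 were the other 4 of the 12.

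The leading lower genes, beside FASN, GYS2 and ME1, included P2RX5, an ATP-gated channel of fat cells, which was from 3.31 to 46.8 TPM in WG and from 1.23 to 2.88 in WL with no overlap (-3.12 ± 0.39, adjusted p = 1.39e-07). NAT8L, which makes N-acetylaspartate, fell by 2.61 and RGS5, a regulator of G protein signals in pericytes, by 2.09. GRK3, CADM2, ZRSR2, MSMB, TTC12 and ODAD4 completed the 12. All 24 leading genes were also called with the 23 WG libraries. They were chosen by the smallest p in the fit that holds those libraries and the same WL libraries, so this count is a description. Over all called genes, 175 of 304 higher and 256 of 559 lower ones stayed called.

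**Figure D4:**
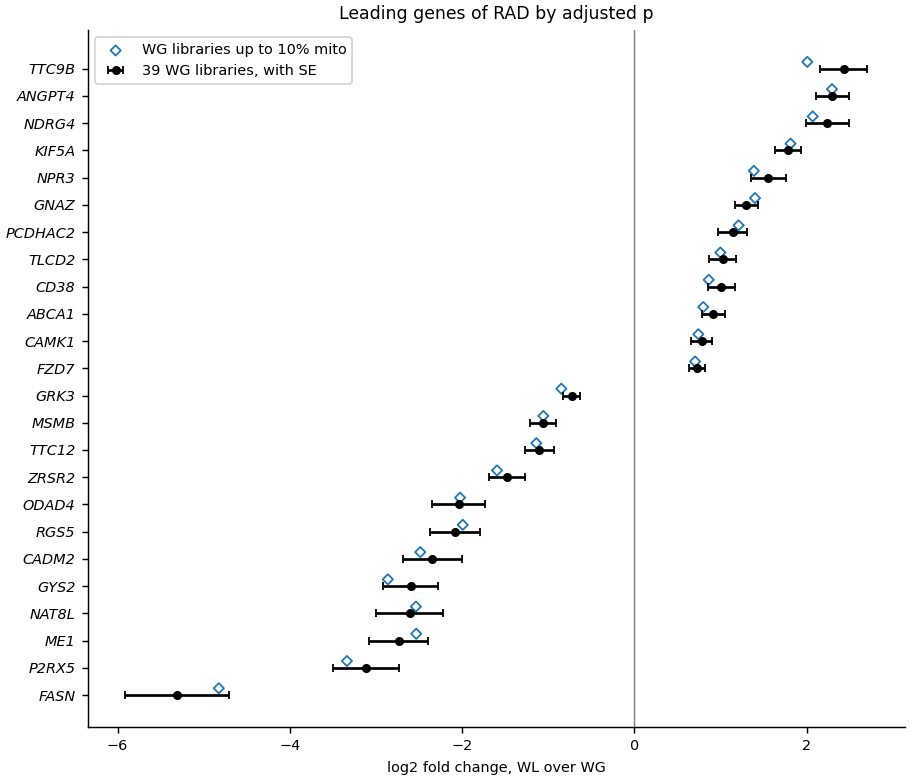
The log2 fold change, WL over WG, of the 12 leading genes in each direction by adjusted p, with SE (black), and with the 23 WG libraries (open diamonds). FASN lies at -5.31 and TTC9B at 2.43, and the diamonds have the sign of the black points for all 24. The genes were chosen from the fit with all WG libraries, of which the 23 are a part.

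Whether RAD changed as the other adipose tissues did was tested by one contrast over 198 WG and WL samples of 4 tissues, against the mean of the greater omentum, the mesenteric adipose and the upper layer of backfat. The tissues were taken from the same carcasses, so the 198 samples are not separate animals, which this contrast does not model. Of 14445 PCGs 8 had a change above the others, 0.0554%, and 0 below. NDRG4 was at 2.23 in RAD and 0.91 in the others (difference 1.32, adjusted p = 0.00994). By tissue its difference was 2.04 from backfat (adjusted p = 3.84e-05), 1.22 from the greater omentum (0.137) and 0.70 from the mesenteric tissue (0.355). C1QTNF3, a secreted protein, was at 0.81 and -1.24 (difference 2.04, adjusted p = 0.00994), though it was not called within RAD. Against single tissues it passed only for the mesenteric tissue (adjusted p = 0.00218). NOX4, an NADPH oxidase, was at 0.82 and -0.07 (adjusted p = 0.0184). Its difference passed for the greater omentum (1.14, adjusted p = 0.00744) and the mesenteric tissue (1.21, 0.000157) and not for backfat (0.32, 0.999). LIPG, endothelial lipase, was at 1.52 and 0.02 (adjusted p = 0.0245), with a difference of 2.65 from backfat and of 0.60 from the mesenteric tissue. Against the mesenteric tissue alone 54 genes had a change above and 451 below, against backfat 23 and 9, and against the greater omentum 2 and 9. With limma-voom 10 were above and 1 below the mean of the others, and 43 and 12 with the replicate number within a group as a block for the shared animals, where the block correlation was 0.4778. Of the 8 genes SLC4A5 was not called with the block (adjusted p = 0.0579).

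In Hi-C the A-B index, a score without unit whose sign gives the compartment of a 20-kb bin, was compared over 113298 bins. The WG samples were not alike here either. On the first principal component, 40.49% of the variance, they ran from -178.94 to 273.69, and the WL samples from -116.41 to 67.56. The part of this spread in the results was not tested. In WL from 49.8% to 50.6% of bins were in compartment A, with a mean of 50.3% ± 0.23 (SD, n = 10), and in WG from 45.97% to 50.1%, with a mean of 48.1% ± 1.09 (SD, n = 40). The ranges overlapped only from 49.8% to 50.1%. NC had a median of 47.3%. The difference was 2.21 percentage points (permutation test, 2-sided, p = 2e-05, the smallest that 100000 resamples give), and 2.07 without chromosome 10. Quantile normalization of the index between samples, given below for the bins, was not run on this share. It gives all samples the same distribution of values, so by design it would make the share equal in all of them. On chromosome 10 the index followed gene density poorly, with correlations from -0.03 to 0.52 over bins of a sample. The other chromosomes, each taken alone in each sample, gave from 0.509 to 0.735. On chromosome 10, 25 WG and 8 WL samples were under 0.25.

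A/B variable bins, which kept their compartment in over 80% of samples of both groups and differed by over 0.75 at an adjusted p below 0.05 (limma), numbered 3292 higher in WL, 2.91% of bins, and 211 lower, 0.186%. Quantile normalization between samples changed that split to 1273 higher and 724 lower, as the median difference over all bins moved from 0.16 to -0.02. Bins in compartment A in under 30% of WG and over 70% of WL samples numbered 617, and those with the opposite change 42, where quantile normalization gave 174 and 180. With the deposited scale 29 bins switched from B to A and 0 from A to B, and with quantile normalization 7 and 6. The replicate numbers did not pair the samples, and with them as a block 958 bins were higher and 48 lower.

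**Figure D5:**
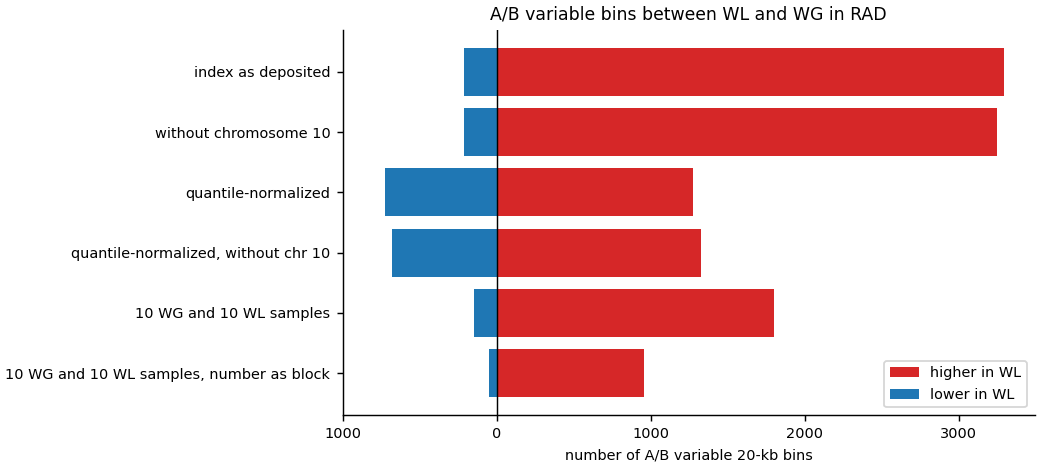
Number of A/B variable 20-kb bins higher (right) or lower (left) in WL under the deposited index, without chromosome 10, after quantile normalization, and in 10 WG and 10 WL samples without and with the number as a block. The lower bins go from 211 to 724 with quantile normalization.

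The bins formed 1858 runs higher in WL and 156 lower, with a median length of 1 bin. The longest, 26 bins of compartment B on chr11:3360001-3940000 at SHISA2, had a mean index of -3.25 in WG and -2.23 in WL, and 15 of the bins passed after quantile normalization. A run of 23 bins in compartment A on chr1:14880001-15400000, with MTHFD1L and AKAP12, went from 3.09 to 4.24, and neither gene was called. A run of 20 bins on chr2:148860001-149320000, with JAKMIP2, SPINK5, SCGB3A2 and SPINK1, rose from -5.92 to -4.96, while JAKMIP2 and SPINK5 were lower in WL. The longest lower run, 7 bins on chr6:920001-1120000, held CYBA, CTU2, RNF166, MVD, ZC3H18 and SNAI3 and went from 8.38 to 7.52, and 1 of its bins passed after quantile normalization.

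The index difference at the gene start had a median of 0.13 over 10348 tested genes with a bin, of 0.22 over 233 higher genes and of 0.13 over 425 lower genes, and after quantile normalization of 0.00, 0.07 and 0.03. Of the 479 genes in variable or switched bins higher in WL, 14 were higher and 24 lower, 2.92% and 5.01%, against 2.23% and 4.05% of 9833 genes in other bins. CAMK1, CD38, the Wnt ligand WNT6, the lipase LIPG and the inhibitory SMAD6 were among the higher genes in such bins, and PDHB and ULK1, with index differences of 0.95 and 0.93, were among the lower. CHP1, a lower gene, lay in a bin lower in WL, at an index of 6.32 in WG and 5.57 in WL.

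TADs were fewer and longer in WL. WG samples had from 4711 to 5437 TADs and WL samples from 4651 to 4976, a difference of means of -123 (permutation test, 2-sided, p = 0.009). The median TAD length was 348.5 kb on average in WG and 362 kb in WL (p = 0.002). Of 12017 boundaries, joined within 100 kb, 0 were called more often in WL and 0 less often, 0% each, by Fisher's exact test, where 644 had an unadjusted p below 0.05 and the smallest adjusted p was 0.108. At 60 kb there were 0 of 16011.

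H3K27ac regions, which mark active enhancers, were deposited for pooled samples, with no replicate values: 21825 regions and 1346 super-enhancers in WL, 18143 and 912 in WG subgroup 5, and 25206 and 1006 in WG subgroup 6. The series held 4 H3K27ac samples of RAD in WL, 12 in WG and 2 in NC. Of the WL regions 67.8% overlapped one of subgroup 5, and of those of subgroup 5 85.3% overlapped one of WL. With 50% overlap of both regions the shares were 37.5% and 45.1%. Between the WG tables, 77.3% of the regions of subgroup 5 overlapped one of subgroup 6, and 32.8% with 50% overlap of both. Of the WL regions 70.7% overlapped one of subgroup 6 and 74.7% one of NC. Within 10 kb of a gene a super-enhancer of WL and of neither WG table lay at 18 of 233 higher genes, 26 of 425 lower genes and 585 of 10348 tested genes. KIF5A and ARHGAP10 were among the higher genes, and FKBP5 among the lower. Near FASN a super-enhancer was listed in WL, in subgroup 6 and in NC, and near PPARG in the same tables.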

How the data were processed

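RNA-seq, Hi-C and H3K27ac samples of RAD were grouped by their labels. The authors estimated transcripts with kallisto 0.43.0 after rRNA depletion and a stranded kit, and deposited expected counts and TPM for 21280 PCGs of Sscrofa11.1. The authors also deposited the A-B index, a score per 20-kb bin, TAD positions, and the signal of ROSE enhancer regions of pooled samples (BWA 0.7.15, SAMtools 1.3.1, SICER). Contact matrices had been Knight-Ruiz balanced and quantile normalized by the authors. Of the estimated counts, 17.85% were 0 and 0 of the rest were whole, so they were rounded. The count table and the index table each held 9 columns that match no sample, which were not used here.

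The test took PCGs for which a group had 80% or more of its libraries over 0.5 TPM, in edgeR 4.0.16 (TMM, quasi-likelihood test, Benjamini-Hochberg) in R 4.3.3. DESeq2 1.42.0 was an alternative. The index was tested with limma 3.58.1, and overlaps were found with bedtools 2.31.1. The standard error of a fold change was taken from the F statistic. Per-sample values were compared by permutation tests with 100000 resamples. Within RAD each sample was taken as 1 pig, and across tissues a pig could give several samples. No interval from counts applies to the index, whose depth per bin is unknown. The edgeR and limma steps were tested on simulated data. Alternatives are in the closing section.

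Named genes were the 12 with the smallest adjusted p per direction and a mean of at least 5 TPM, the 4 smallest in each of 26 lists, a fixed set of metabolic and inflammatory genes, the 6 longest runs of bins per direction, DEGs in those bins, and genes whose change differed between tissues. TNF and TSC22D3 were not matched. Some named genes are not reported here, though list counts include them. The members and lists were chosen with earlier results of these data known. Gene places and the windows at gene starts are from RefSeq, Sscrofa11.1, matched by gene symbol or synonym for 13755 PCGs. All 18 autosomes of the index ended within 1 bin of that reference. Replicate numbers did not pair WL with WG pigs: of 10 pairs, 4 had a correlation of deviations above 0.1 in RNA (from -0.34 to 0.18) and 5 in Hi-C (from -0.25 to 0.51).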

Additional observations from a re-analysis of the deposited data

Results flagged for a closer look

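The change between WG and WL in RAD differed from the mean of that in the other adipose tissues, by the edgeR contrast over 198 samples, for 5 named genes. Against single tissues NDRG4, LIPG and ARHGAP10 passed only for backfat and C1QTNF3 only for the mesenteric tissue. NOX4 passed for the greater omentum and the mesenteric tissue but not for backfat. NDRG4 had a log2 change in RAD above that of the others by 1.32 (adjusted p = 0.00994). LIPG had a difference of 1.509 (adjusted p = 0.0245), C1QTNF3 one of 2.045 (adjusted p = 0.00994), NOX4 one of 0.8893 (adjusted p = 0.0184) and ARHGAP10 one of 0.6019 (adjusted p = 0.0346). The number of the 10 WL libraries above the WG median was 10 for NDRG4, 8 for LIPG, 9 for C1QTNF3, 9 for NOX4 and 7 for ARHGAP10. Of 56 groups of 10 WL values tested for a library far from the others, 0 were marked.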

How the results depend on the processing

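Of 16 results that answer a comparison, 5 kept their direction and threshold under each alternative run: the share of bins in compartment A, the number and the median length of TADs, the share of TPM on PCGs and the count of TAD boundaries. For the others the cause was not tested. The alternatives for the per-sample values were few: each left out 1 WL sample, or chromosome 10 for the share of bins in compartment A. Quantile normalization of the index, which changed the counts of bins below, was not run on that share, which it would make equal in all samples by design. DEGs higher in WL were 304, 473 in the same 20 samples without a replicate block, 389 with the replicate block, 919 with no fold limit, and 243 to 338 without 1 WL library. DEGs lower in WL were 559, 1052 without the block in 20 samples, 648 with the replicate block, 855 with no fold limit, 339 without WL replicates 7 and 9, which had a lower share of high-quality bases, and 368 to 580 without 1 WL library. DESeq2 gave 302 and 827. A/B variables higher in WL were 1273 after quantile normalization of the index, 1329 when chromosome 10 was also left out, 11045 with an index difference above 0.5, 958 with the replicate block and 1801 in the same samples without it. A/B variables lower in WL were 724 and 683 after quantile normalization with and without chromosome 10, 1153 above 0.5, 126 at an adjusted p below 0.01, 48 with the replicate block and 166 to 283 without 1 WL sample. Bins with a low frequency of A in WG and a high one in WL were 169 at 80% and 20% and 174 after quantile normalization, and the opposite class 3 and 180. Switches after quantile normalization were 7 to A and 6 to B. Genes whose change in RAD differed were 505 against the mesenteric tissue, 32 against backfat 11 with limma-voom and 55 with limma-voom and the replicate block. With the block in 20 RAD samples 3 lipolysis genes were higher and 4 lower, 5 ribosomal proteins were higher, 8 mitochondria-encoded genes were lower and DGAT2 was at -2.10 (adjusted p = 0.00708). At 50% overlap the enhancer shares between WL and WG subgroup 5 were 37.5% and 45.11%. The log2 fold change of ZFP36 was 0.0913 with WG libraries of up to 10% mitochondria-encoded TPM. Of 79 called named genes, 41 stayed called in all 21 alternatives, 18 were lost with those libraries, 14 with the block and 13 without 1 WL library. The alternatives on mitochondria-encoded TPM, on WL replicates 4 and 5 on chromosome 10 and on limma-voom without the block were chosen after seeing the data.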
